A study of Mus musculus with 4 samples.

Results

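Chemokines are small secreted proteins that draw migrating cells toward their source. The messenger RNAs of 10 chemokine genes, Ccl2, Ccl3, Ccl4, Ccl5, Ccl6, Ccl7, Cxcl1, Cxcl2, Cxcl10 and Cxcl14, were followed through 4 libraries of cultured mouse hippocampal neurons. The genes were taken by symbol, with earlier results of these data known, and all 10 were found among the 21719 genes kept. Each was measured in FPKM, the fragments of a transcript scaled to its length and to the mapped fragments of the library, and each FPKM is given with the lower and upper bound that the authors' software reported. The bounds and all intervals given here cover counting error within 1 library. Each group was 1 library, so no difference between groups has a replicate check and no test was made.

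All cultures came from the hippocampus of newborn (P0) pups of CD1 mice, an outbred stock, and were grown in Neurobasal medium with B27. Every culture received a lentivirus on day 4 in vitro, which was either a Kdm6b shRNA virus or the empty pLKO.1 vector, and was harvested on day 11. Kdm6b encodes a demethylase that removes methyl groups from lysine 27 of histone H3. The 4 groups were Kdm6b shRNA with Bic/4AP, vector with Bic/4AP, Kdm6b shRNA untreated and vector untreated, where Bic/4AP stands for 3 h with 50 µM bicuculline and 2.5 mM 4-aminopyridine. Bicuculline is an antagonist of GABA-A receptors and 4-aminopyridine an inhibitor of voltage-gated potassium channels, so together they make neuronal networks fire. The knockdown rests on 1 hairpin sequence, and the labels do not say how many pups or dishes entered a library.

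Chemokines are named for the spacing of their first cysteines, CC or CXC, and act through G-protein-coupled receptors on leukocytes and other cells. Many of their genes lie in clusters and are switched on by the transcription factor NF-kB or by interferons. In brain tissue the inflammatory members are made mainly by glia and vessel cells, and by some neurons after injury or intense firing, while a few, such as Cxcl14, are made by resting neurons.

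The checks of the labels were as follows. Kdm6b stood at 4.83 FPKM in shRNA cultures with Bic/4AP, against 13.1 FPKM in vector cultures with Bic/4AP, and at 2.73 FPKM in untreated shRNA cultures, against 6.74 FPKM in untreated vector cultures. Fos, an immediate-early gene of firing neurons, stood at 765 and 771 FPKM in shRNA and vector cultures with Bic/4AP, against 15.3 and 12.5 FPKM in untreated shRNA and vector cultures. All 12 neuron markers reached 1 FPKM. So did 11 of 12 astrocyte markers in at least 1 library, with Gfap between 1514 and 1767 FPKM. The cultures named for neurons thus also held astrocyte RNA. Of 8 fibroblast and meningeal markers 7 reached 1 FPKM in at least 1 library, and of 12 endothelial and mural markers 4 did. Of 20 microglia markers 16 reached 1 FPKM in at least 1 library, and of 9 T cell and granulocyte markers none did, with Cd3g, Gzmb and S100a9 listed at 0 throughout. In bulk RNA, fewer cells of a type and less RNA per cell cannot be told apart. Relative depth, read from the low values, was 0.994 in shRNA with Bic/4AP, 0.932 in vector with Bic/4AP and 1.04 in untreated shRNA, with untreated vector set to 1.

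The start regions of 3 CXC genes that were higher with Bic/4AP, Cxcl1, Cxcl2 and Cxcl10, are shown because 2 of them share an 11-base word at about the same place and the third carries other words of the same family. The windows run from 250 bases before to 50 bases after the gene start, on the coding strand, in RefSeq build GRCm38.p6, at chr5:90890995-90891294 (plus) for Cxcl1, chr5:90903649-90903948 (plus) for Cxcl2 and chr5:92348840-92349139 (minus) for Cxcl10. Capitals mark matches to the NF-kB consensus, to the AP-1 word TGANTCA and to GAAANNGAA, a core of the interferon-stimulated response element.
Cxcl1: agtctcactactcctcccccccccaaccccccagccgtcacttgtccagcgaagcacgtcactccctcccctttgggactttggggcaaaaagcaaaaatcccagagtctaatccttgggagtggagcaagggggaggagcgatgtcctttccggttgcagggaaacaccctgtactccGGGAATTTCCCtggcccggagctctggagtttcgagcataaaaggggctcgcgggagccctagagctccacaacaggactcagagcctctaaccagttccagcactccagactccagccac
Cxcl2: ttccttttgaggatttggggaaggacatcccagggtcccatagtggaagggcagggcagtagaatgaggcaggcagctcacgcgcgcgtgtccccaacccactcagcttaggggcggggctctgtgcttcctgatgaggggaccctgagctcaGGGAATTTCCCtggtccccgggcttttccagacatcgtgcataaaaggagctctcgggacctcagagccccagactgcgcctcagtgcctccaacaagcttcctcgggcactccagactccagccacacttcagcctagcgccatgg
Cxcl10: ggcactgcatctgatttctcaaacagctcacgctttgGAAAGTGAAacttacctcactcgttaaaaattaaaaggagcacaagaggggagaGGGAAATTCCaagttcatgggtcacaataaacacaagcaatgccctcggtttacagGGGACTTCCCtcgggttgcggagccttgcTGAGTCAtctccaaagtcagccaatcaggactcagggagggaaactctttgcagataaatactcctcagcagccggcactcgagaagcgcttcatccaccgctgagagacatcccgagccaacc
The word GGGAATTTCCC began 71 bases before the start of Cxcl1 and 97 bases before the start of Cxcl2. Cxcl10 held GGGAAATTCC at 159 bases and GGGACTTCCC at 103 bases before its start, an AP-1 word at 74 bases and the interferon core at 213 bases. Both strands were searched, and the NF-kB consensus was found in 4.51%, the AP-1 word in 7.81% and the interferon core in 8.56% of the 32851 RefSeq windows of this length. RefSeq windows were given for 6 of the 10 genes. The windows of Ccl3 and Cxcl14 held 1 interferon core each and no NF-kB or AP-1 word, and the window of Ccl6 held none of these words. The cyclic AMP response element TGACGTCA, in 1.79% of all windows, and the TATA word TATAAA, in 13.6%, were in none of the 6. A match is a description of the letters and does not show that a factor binds there.

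With Bic/4AP, 6 of the 10 chemokine genes were at least 2-fold higher than in untreated cultures, in shRNA and in vector cultures alike: Ccl2, Ccl7, Cxcl1, Cxcl2, Cxcl10 and Ccl5. None of the 10 was 2-fold lower. A 2-fold difference here means a difference of at least 1 in log2(FPKM + 1), taken where a gene reached 1 FPKM in at least 1 of the libraries compared. Adding 1 shrinks the fold of scarce genes, so a plain FPKM ratio can pass 2 where this difference does not reach 1. With 5 added in place of 1, Ccl5 in vector cultures fell short, at 0.73. By the rule with 1 added, 2.08% of 13320 genes were higher with Bic/4AP in shRNA cultures and 2.22% of 13217 genes in vector cultures. Lower were 0.158% and 0.272%. The 10 genes were chosen with earlier results of these data known, so their count beside these shares is a description. Over all 10 genes, with no minimum level, the median difference was 2.49 in shRNA cultures and 2.39 in vector cultures, against -0.01 and 0 over all 21719 genes. The summed FPKM of the 10 genes was 274 in shRNA cultures with Bic/4AP, against 36.6 in untreated shRNA cultures, and 233 in vector cultures with Bic/4AP, against 51.4 in untreated vector cultures.

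**Figure D1:**
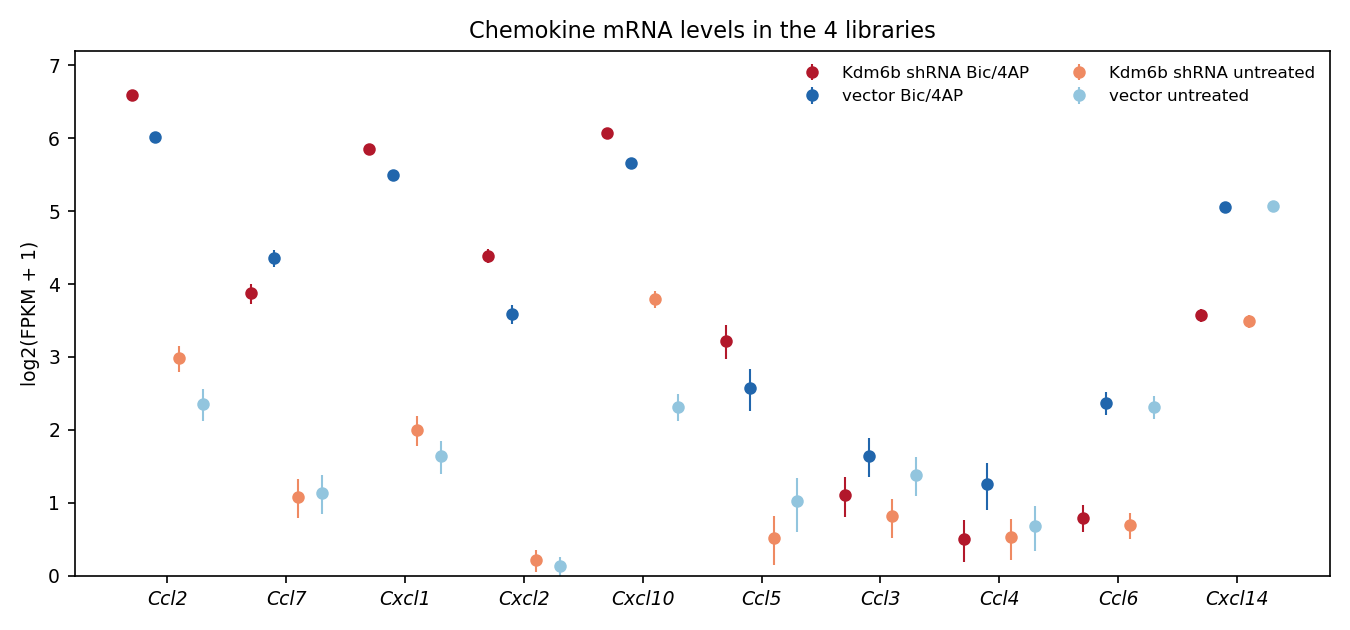
Level of each chemokine mRNA as log2(FPKM + 1) in the 4 libraries, with the authors' bounds as bars. Ccl2, Ccl7, Cxcl1, Cxcl2, Cxcl10 and Ccl5 sit higher in both libraries with Bic/4AP than in both untreated ones, while Ccl6 and Cxcl14 sit lower in both Kdm6b shRNA libraries than in both vector libraries.

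Ccl2 and Ccl7 encode ligands of the receptor Ccr2, which call in monocytes. Ccl2 (mm9 chr11:81849079-81850954) had the highest level of the 10 in both Bic/4AP libraries. It stood at 95.9 FPKM (bounds 92.2 to 99.5) in shRNA cultures with Bic/4AP, against 6.92 FPKM (5.96 to 7.88) in untreated shRNA cultures, and at 63.9 FPKM (60.8 to 67.0) in vector cultures with Bic/4AP, against 4.12 FPKM (3.36 to 4.88) in untreated vector cultures. None of these 4 bounds overlap. The ratio of Bic/4AP to untreated was 13.9 (95% interval 12 to 16) with the hairpin and 15.5 (12.9 to 18.8) with the vector. Ccl7 (chr11:81859214-81861025), the next gene along and another Ccr2 ligand, stood at 13.6 FPKM in shRNA cultures with Bic/4AP, against 1.12 FPKM in untreated shRNA cultures, and at 19.5 FPKM in vector cultures with Bic/4AP, against 1.20 FPKM in untreated vector cultures. Its ratios were 12.2 (8.55 to 18.0) with the hairpin and 16.2 (11.5 to 23.7) with the vector, and its untreated levels overlapped.

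The pair of Cxcr2 ligands, which attract neutrophils, had the largest differences of the 10 in log2(FPKM + 1) in shRNA cultures, 4.18 for Cxcl2 and 3.86 for Cxcl1. Cxcl1 (chr5:91320271-91322141) stood at 56.9 FPKM (54.4 to 59.4) in shRNA cultures with Bic/4AP, against 3.00 FPKM (2.43 to 3.57) in untreated shRNA cultures, and at 44.1 FPKM (41.7 to 46.4) in vector cultures with Bic/4AP, against 2.12 FPKM (1.63 to 2.61) in untreated vector cultures. Its ratios were 19.0 (15.7 to 23.2) with the hairpin and 20.8 (16.5 to 26.6) with the vector. Cxcl2 (chr5:91332925-91334964), whose start window holds the same NF-kB word as that of Cxcl1, stood at 19.98 FPKM in shRNA cultures with Bic/4AP, against 0.160 FPKM in untreated shRNA cultures, and at 11.0 FPKM in vector cultures with Bic/4AP, against 0.0957 FPKM in untreated vector cultures. Its untreated levels rest on 7 fragments with the hairpin and 4 with the vector, so its ratios of 125 (60.2 to 311) and 115 (44.6 to 424) are loosely fixed. On the log2(FPKM + 1) scale Cxcl2 ranked 9 from the highest of 13320 genes in shRNA cultures and 20 from the highest of 13217 in vector cultures, and Cxcl1 ranked 12 and 15.

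Cxcl10 (chr5:92775667-92777880), an interferon-inducible ligand of Cxcr3 on T cells, was the member whose response differed most on the low side between shRNA and vector cultures in log2(FPKM + 1). It stood at 66.4 FPKM (63.9 to 69.0) in shRNA cultures with Bic/4AP, against 12.9 FPKM (11.8 to 14.0) in untreated shRNA cultures, and at 49.3 FPKM (47.1 to 51.6) in vector cultures with Bic/4AP, against 3.99 FPKM (3.36 to 4.61) in untreated vector cultures. The 4 bounds do not overlap, and the untreated shRNA level lies apart from the untreated vector level. The ratio of Bic/4AP to untreated was 5.15 (4.70 to 5.66) with the hairpin and 12.4 (10.5 to 14.6) with the vector. Ccl5 (chr11:83339281-83344020), which attracts T cells and monocytes, was scarcer. It stood at 8.34 FPKM (6.87 to 9.81) in shRNA cultures with Bic/4AP, against 0.431 FPKM (0.105 to 0.756) in untreated shRNA cultures, and at 4.96 FPKM (3.79 to 6.13) in vector cultures with Bic/4AP, against 1.03 FPKM (0.514 to 1.54) in untreated vector cultures. Its ratios were 19.4 (9.13 to 49.1) with the hairpin, on 7 untreated fragments, and 4.83 (2.78 to 8.89) with the vector, on 16.

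The other 4 genes differed from untreated by less than 1 in log2(FPKM + 1) wherever they were compared. Ccl3 (chr11:83461345-83462880) and Ccl4 (chr11:83476086-83478185), which encode the macrophage inflammatory proteins, were near the lowest levels measured. Ccl3 stood at 1.15 FPKM in shRNA cultures with Bic/4AP, against 0.756 FPKM in untreated shRNA cultures, and at 2.12 FPKM in vector cultures with Bic/4AP, against 1.61 FPKM in untreated vector cultures. Its ratios of 1.53 (0.860 to 2.76) with the hairpin and 1.31 (0.868 to 1.99) with the vector both have intervals that span 1, so no response was detectable at this depth. Ccl4 stood at 0.417 FPKM in shRNA cultures with Bic/4AP, against 0.441 FPKM in untreated shRNA cultures, which are 9 and 10 fragments. In vector cultures it stood at 1.38 FPKM with Bic/4AP, against 0.599 FPKM untreated, a ratio of 2.31 (1.16 to 4.86) on 28 and 13 fragments, and a difference of 0.58 on the log2(FPKM + 1) scale, which was 1.09 with 0.1 added in place of 1. The FPKM bounds of these vector levels overlap. Ccl6 (chr11:83401388-83406589), a chemokine of macrophages and other myeloid cells, stood at 0.738 FPKM in shRNA cultures with Bic/4AP, against 0.621 FPKM in untreated shRNA cultures, and at 4.17 FPKM in vector cultures with Bic/4AP, against 3.98 FPKM in untreated vector cultures. The bounds of its treated and untreated levels overlap in both backgrounds.

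Cxcl14 (chr13:56390006-56397912), a chemokine made by interneurons of the hippocampus among other cells, had the tightest limits on a response. It stood at 10.9 FPKM (10.2 to 11.7) in shRNA cultures with Bic/4AP, against 10.2 FPKM (9.50 to 10.9) in untreated shRNA cultures, and at 32.4 FPKM (31.1 to 33.8) in vector cultures with Bic/4AP, against 32.7 FPKM (31.4 to 34.0) in untreated vector cultures. The ratio was 1.07 (0.969 to 1.18) with the hairpin and 0.992 (0.938 to 1.05) with the vector, so any response in these libraries was small beside the differences of the 6 genes above.

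**Figure D2:**
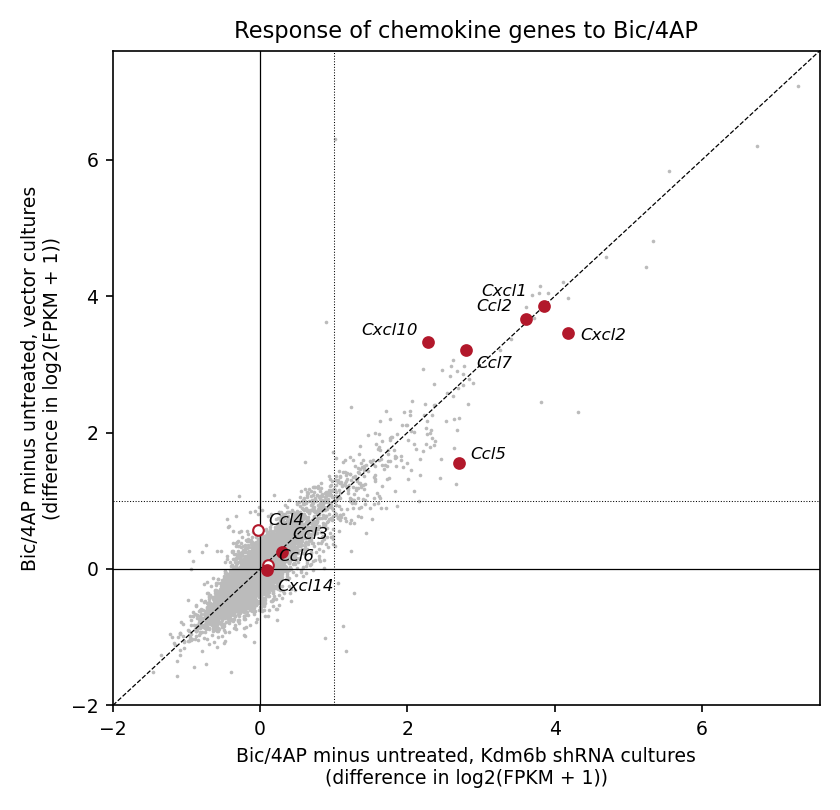
Difference between Bic/4AP and untreated cultures in log2(FPKM + 1), in Kdm6b shRNA cultures on the x axis and in vector cultures on the y axis. Grey points are the 13079 genes compared in both, of which 2 lie outside the axes, red points are the chemokine genes, open circles are those compared in vector cultures only, dotted lines mark a difference of 1 and the dashed line equal differences. Cxcl10 lies above the dashed line, at 2.28 with the hairpin and 3.33 with the vector, and Ccl5 lies below it, at 2.71 and 1.56.

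The make-up of chemokine RNA differed with treatment. Cxcl14 was 3.98% of the summed FPKM of the 10 genes in shRNA cultures with Bic/4AP, against 27.9% in untreated shRNA cultures, and 13.9% in vector cultures with Bic/4AP, against 63.6% in untreated vector cultures. In both Bic/4AP libraries the order from the highest level was Ccl2, Cxcl10 and Cxcl1, and these 3 levels had bounds apart from each other. In untreated shRNA cultures the order began with Cxcl10, Cxcl14, Ccl2 and Cxcl1, each with bounds apart from the next. In untreated vector cultures it began with Cxcl14, after which Ccl2 overlapped with Cxcl10, and Cxcl10 with Ccl6. Ccl4 was lowest in both Bic/4AP libraries and Cxcl2 in both untreated ones, and most neighbours among the scarcest genes overlapped.

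The second question was what the hairpin did at a fixed treatment. Ccl6 and Cxcl14 were at least 2-fold lower in shRNA than in vector cultures, both untreated and with Bic/4AP. Cxcl10 was at least 2-fold higher in untreated shRNA cultures, and no member was 2-fold higher with the hairpin under Bic/4AP. With 5 added in place of 1, Cxcl14 alone was still 2-fold apart in these comparisons, and Ccl6 stood at -0.68 in both and Cxcl10 at 0.99 untreated. Among all genes, 0.414% of 13295 were higher and 0.669% lower in untreated shRNA cultures, and 0.189% of 13240 were higher and 0.536% lower with Bic/4AP. Over all 10 genes the median difference was -0.10 untreated and -0.06 with Bic/4AP, against 0 over all genes in each.

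For Ccl6 the ratio of shRNA to vector was 0.156 (0.108 to 0.221) untreated, on 38 and 233 fragments, and 0.177 (0.125 to 0.246) with Bic/4AP, on 43 and 228. Cxcl14 had ratios of 0.312 (0.288 to 0.338) in the untreated pair and 0.336 (0.310 to 0.364) under Bic/4AP. Ccl6 and Cxcl14 ranked 9 and 10 from the lowest of all genes compared untreated, and 8 and 10 from the lowest with Bic/4AP. For Cxcl10 the ratio was 3.23 (2.71 to 3.87) untreated, where it ranked 11 from the highest, and 1.35 (1.27 to 1.43) with Bic/4AP.

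The remaining 7 genes differed by less than 1 in log2(FPKM + 1) between shRNA and vector cultures wherever they were compared. With 0.1 added in place of 1, Ccl3 and Ccl5 untreated passed the 2-fold limit on the low side, Ccl5 at -1.09, and so did Ccl4 with Bic/4AP, at -1.52. Ccl2 had ratios of 1.68 (1.33 to 2.12) untreated and 1.50 (1.41 to 1.60) with Bic/4AP, and Cxcl1 had ratios of 1.42 (1.05 to 1.93) and 1.29 (1.21 to 1.38). Cxcl2 had a ratio of 1.81 (1.61 to 2.04) with Bic/4AP. Ccl7, the neighbour of Ccl2, lay on the other side of 1 with Bic/4AP, at 0.700 (0.612 to 0.801), while untreated its interval of 0.558 to 1.55 spans 1. Ccl3 had ratios of 0.468 (0.268 to 0.796) untreated and 0.545 (0.341 to 0.858) with Bic/4AP, where the FPKM bounds overlap. Ccl4 had a ratio of 0.301 (0.125 to 0.657) with Bic/4AP, a difference of -0.75 in log2(FPKM + 1), while its untreated ratio of 0.737 (0.289 to 1.82) has an interval that spans 1. Ccl5 had ratios of 0.419 (0.146 to 1.08) untreated, an interval that spans 1, and 1.68 (1.25 to 2.27) with Bic/4AP.

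**Figure D3:**
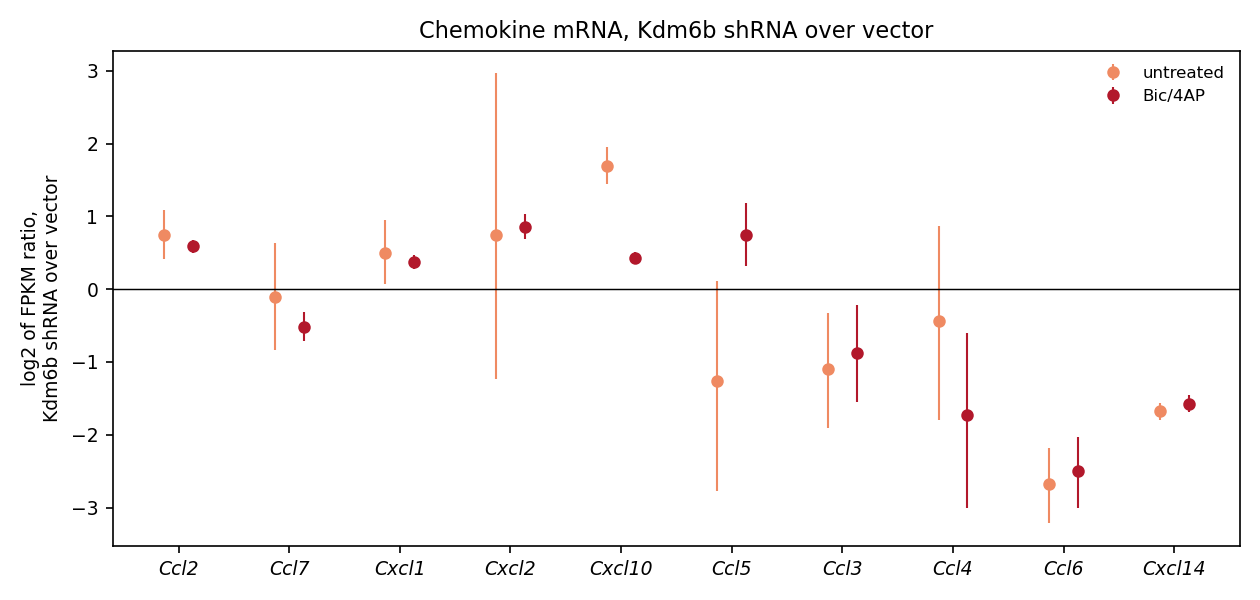
Ratio of FPKM in Kdm6b shRNA cultures over vector cultures on a log2 axis, untreated and with Bic/4AP, with 95% intervals for counting error within the libraries. Ccl6 lies at -2.68 untreated and -2.50 with Bic/4AP, and Cxcl14 at -1.68 and -1.57. Cxcl10 lies higher untreated than with Bic/4AP, and Cxcl2 untreated has the widest interval.

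The third question was whether the response to Bic/4AP differed between shRNA and vector cultures, and 2 of the 10 genes differed by at least 1 on the log2(FPKM + 1) scale, Cxcl10 on the low side and Ccl5 on the high side. Among 13458 genes, 0.111% differed that far on the high side and 0.126% on the low side. The difference of responses was -1.06 for Cxcl10, with a ratio of ratios of 0.417 (approximate interval 0.346 to 0.501), and 1.15 for Ccl5, with a ratio of ratios of 4.01 (1.58 to 10.2). For Cxcl10 the ratio of shRNA to vector cultures was nearer to 1 with Bic/4AP, at 1.35, than untreated, at 3.23. In plain FPKM the Bic/4AP levels, 66.4 and 49.3, were further apart than the untreated levels, 12.9 and 3.99. For Ccl5 the value rests on the 7 fragments of the untreated shRNA library. With 5 added in place of 1 neither gene reached 1, at -0.60 for Cxcl10 and 0.57 for Ccl5, and with 0.1 added Ccl4 joined them at -1.15. The ratio of ratios of Ccl4 was 0.409 (0.134 to 1.25), an interval that spans 1. The ratio of ratios was 0.893 (0.707 to 1.13) for Ccl2, 0.753 (0.458 to 1.24) for Ccl7, 0.911 (0.675 to 1.23) for Cxcl1 and 1.08 (0.315 to 3.72) for Cxcl2, so that all 4 intervals span 1 and differences of the sizes within them could not be seen. Over the 10 genes the median difference of responses was 0.02, against 0 over all genes.

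Most of these genes lie in clusters, 2 on chromosome 11 and 2 on chromosome 5. Many genes of the clusters stayed under 1 FPKM and were not compared. In the proximal cluster of chromosome 11, 2 of 2 genes compared were 2-fold higher with Bic/4AP in vector cultures. In the distal cluster it was 1 of 4, and on chromosome 5 it was 2 of 3 and 2 of 2. In shRNA cultures these counts were 2 of 3 and 1 of 2 on chromosome 11, and 2 of 3 and 2 of 2 on chromosome 5. In the proximal cluster of chromosome 11, of 6 genes over 144 kb, Ccl2 and Ccl7, 8.26 kb apart, were the genes 2-fold higher with Bic/4AP. Ccl8, further along, stood at 1.24 FPKM in shRNA cultures with Bic/4AP, against 0.852 FPKM in untreated shRNA cultures, and at 0.587 FPKM in vector cultures with Bic/4AP, against 0.616 FPKM in untreated vector cultures, and Ccl11 and Ccl12 stayed under 1 FPKM in all 4 libraries. In the distal cluster, of 5 genes over 139 kb, Ccl5 was 2-fold higher and Ccl6, Ccl3 and Ccl4 were not, while Ccl9 stayed under 1 FPKM. In the proximal cluster of chromosome 5, of 7 genes over 147 kb, Cxcl1 and Cxcl2, 10.8 kb apart, were the ones higher. Cxcl5, another Cxcr2 ligand of that cluster, stood at 2.24 FPKM in shRNA cultures with Bic/4AP, against 1.85 FPKM in untreated shRNA cultures, and at 3.45 FPKM in vector cultures with Bic/4AP, against 2.83 FPKM in untreated vector cultures. In the distal cluster of chromosome 5, of 3 genes over 42.0 kb, Cxcl10 and Cxcl11 were higher, while Cxcl9, the third Cxcr3 ligand, stayed at or under 0.0623 FPKM.

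**Figure D4:**
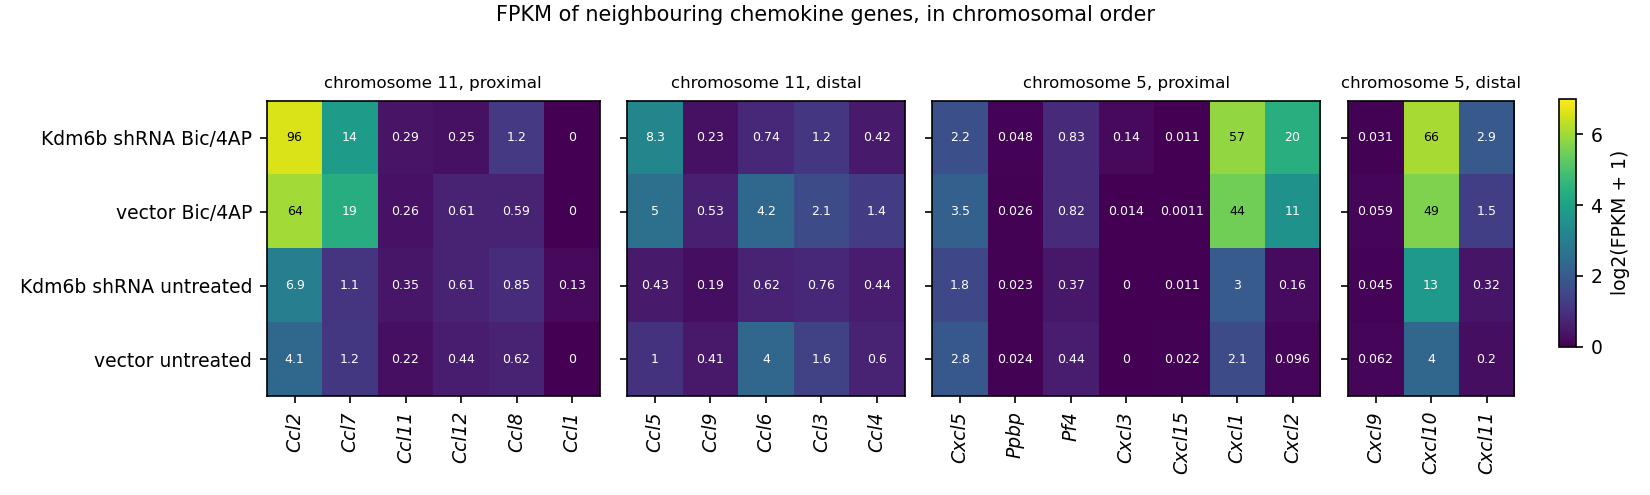
FPKM of the genes of 4 chemokine clusters in chromosomal order, written in each cell, with colour giving log2(FPKM + 1) and rows giving the 4 libraries. High levels with Bic/4AP sit in neighbouring pairs, Ccl2 with Ccl7 and Cxcl1 with Cxcl2, beside genes that stay under 1 FPKM.

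Among 30 other chemokine ligands kept, 10 reached 1 FPKM and 1, Cxcl11, was 2-fold higher with Bic/4AP. Cxcl11, a Cxcr3 ligand like Cxcl10, stood at 2.87 FPKM in shRNA cultures with Bic/4AP, against 0.320 FPKM in untreated shRNA cultures, and at 1.47 FPKM in vector cultures with Bic/4AP, against 0.198 FPKM in untreated vector cultures. Its ratios were 8.95 (5.67 to 14.8) with the hairpin and 7.41 (4.04 to 15.8) with the vector. The ligand with the highest FPKM of this list, Cx3cl1, a membrane-bound chemokine of neurons, stood at 94.8 FPKM in shRNA cultures with Bic/4AP, against 104.0 FPKM in untreated shRNA cultures, and at 105.9 FPKM in vector cultures with Bic/4AP, against 119.5 FPKM in untreated vector cultures. Cxcl12, the ligand of Cxcr4, lay between 6.40 and 7.76 FPKM in all 4 libraries. No other ligand was 2-fold apart between shRNA and vector cultures, of 7 compared untreated and 10 with Bic/4AP.

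Ccr2, Cxcr2 and Cxcr3, receptors of responding ligands, were scarce. Of 24 chemokine receptors kept, 4 reached 1 FPKM: Cxcr4, Cxcr7, Darc and Cx3cr1. Ccr2, the receptor of Ccl2 and Ccl7, was at or under 0.0349 FPKM in every library, and Cxcr3 was listed at 0 in shRNA and vector cultures with Bic/4AP, against 0.0143 FPKM in untreated shRNA cultures and 0.0150 FPKM in untreated vector cultures. Cxcr2 was at 0.558 FPKM in shRNA cultures with Bic/4AP, against 0.679 FPKM in untreated shRNA cultures, and at 0.571 FPKM in vector cultures with Bic/4AP, against 0.474 FPKM in untreated vector cultures. Cxcr7, an atypical receptor that takes up Cxcl12, stood at 12.7 FPKM in shRNA cultures with Bic/4AP, against 8.30 FPKM in untreated shRNA cultures, and at 18.2 FPKM in vector cultures with Bic/4AP, against 7.69 FPKM in untreated vector cultures. It was the 1 receptor 2-fold higher with Bic/4AP, in vector cultures, with differences of 0.55 with the hairpin and 1.14 with the vector.

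Genes of the NF-kB pathway and its targets were also higher with Bic/4AP. Of 26 compared out of 30 listed, 11 were 2-fold higher in shRNA cultures and 9 in vector cultures, none was 2-fold lower, and the median difference was 0.66 and 0.70. By the same rule 2.08% of all genes were higher in shRNA cultures and 2.22% in vector cultures. The list was chosen with earlier results of these data known. Nfkb1, which encodes the p50 subunit, stood at 21.3 FPKM in shRNA cultures with Bic/4AP, against 9.97 FPKM in untreated shRNA cultures, and at 19.97 FPKM in vector cultures with Bic/4AP, against 7.52 FPKM in untreated vector cultures. Nfkbiz, a nuclear co-regulator of NF-kB, differed by 1.58 with the hairpin and 1.84 with the vector, and Tnfaip3, a feedback inhibitor, by 1.40 and 1.02. The cytokine Il6 differed by 2.68 and 2.66. The prostaglandin enzyme Ptgs2, which firing also raises in neurons, differed by 5.24 and 4.43. None of the list was 2-fold apart between shRNA and vector cultures, of 24 compared untreated and 26 with Bic/4AP.

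Genes of the interferon pathway, a list that includes Cxcl10, were higher with the hairpin in untreated cultures. Of 24 compared, 10 were 2-fold higher in untreated shRNA cultures, against 0.414% of all genes. In all, 23 lay above 0, with a median difference of 0.72. Among them were the antiviral genes Rsad2, with a difference of 1.73, and Isg15, with 1.39, and the transcription factor Irf7, with 1.57, beside 1.48 for Cxcl10. With Bic/4AP none of the 24 was 2-fold apart between shRNA and vector cultures, and the median was 0.26. Cxcl10 was the 1 gene of the list 2-fold higher with Bic/4AP in shRNA cultures, where the median was -0.25, and Cxcl10 and Gbp2 were the 2 in vector cultures, where the median was 0.26. The difference of responses lay below 0 for 22 of the 24, with a median of -0.50. How far the interferon genes and Cxcl10 share a cause was not tested.

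Some microglia markers were 2-fold lower in shRNA cultures, as Ccl6 was. The summed FPKM of the 20 markers was 81.7 in untreated shRNA cultures, against 169 in untreated vector cultures (48.4%), and 114 in shRNA cultures with Bic/4AP, against 230 in vector cultures with Bic/4AP (49.4%). These sums rest in large part on Lyz2. It stood at 15.8 FPKM in untreated shRNA cultures, against 58.4 FPKM in untreated vector cultures. With Bic/4AP it stood at 22.5 FPKM in shRNA cultures, against 69.4 FPKM in vector cultures. Of 15 compared, 5 were 2-fold lower untreated and 4 with Bic/4AP, against 0.669% and 0.536% of all genes. Their median difference in log2(FPKM + 1) was -0.44 untreated and -0.84 with Bic/4AP. Below 0 lay 14 untreated and 13 with Bic/4AP. No microglia marker was listed at 0 in all libraries. The list did not move as 1: Tyrobp, a myeloid adaptor protein, stood at 3.17 FPKM in untreated shRNA cultures, against 10.5 FPKM in untreated vector cultures, while P2ry12, a purine receptor of resting microglia, stood at 1.88 FPKM in untreated shRNA cultures, against 1.43 FPKM in untreated vector cultures. Ccl6 per unit of Tyrobp was 0.196 in untreated shRNA cultures, against 0.378 in untreated vector cultures, and 0.214 in shRNA cultures with Bic/4AP, against 0.387 in vector cultures with Bic/4AP. Ccl3 per unit of Tyrobp had point values the other way, at 0.238 in untreated shRNA cultures, against 0.154 in untreated vector cultures. With Bic/4AP it was 0.335 in shRNA cultures, against 0.196 in vector cultures. Untreated, the ratio of shRNA to vector was 0.468 (0.268 to 0.796) for Ccl3 and 0.302 (0.220 to 0.408) for Tyrobp. With Bic/4AP these ratios were 0.545 (0.341 to 0.858) and 0.320 (0.234 to 0.432). The Ccl3 and Tyrobp intervals overlap in both comparisons, so the direction for Ccl3 was not separable from counting error. The Ccl6 intervals, 0.108 to 0.221 untreated and 0.125 to 0.246 with Bic/4AP, also overlap those of Tyrobp. The difference in Ccl6 per unit of Tyrobp was not tested. The part of microglial RNA in the levels of Ccl6, Ccl3 and Ccl4 was not tested.

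A few inhibitory neuron markers were 2-fold lower in shRNA cultures, as Cxcl14 was. The summed FPKM of 16 markers was 684 in untreated shRNA cultures, against 1326 in untreated vector cultures (51.5%). With Bic/4AP it was 936 in shRNA cultures, against 1295 in vector cultures (72.3%). These sums rest largely on Sst, Npy, Cck and Gad1. Untreated, those genes stood at 41.9%, 35.9%, 40.7% and 46.3% of vector cultures. Every other marker lay between 66.7% (Slc32a1) and 112% (Vip). With Bic/4AP Sst stood at 76.3%. The median difference of the 16 in log2(FPKM + 1) was -0.41 untreated and -0.16 with Bic/4AP. Untreated, 4 of 16 were 2-fold lower, and with Bic/4AP 1 was, the neuropeptide gene Cck. None was 2-fold higher. Among all genes, 0.669% were 2-fold lower untreated and 0.536% with Bic/4AP. Below 0 lay 14 of the 16 untreated and 12 with Bic/4AP, where Vip, a neuropeptide gene, stood on the other side at 4.06 FPKM in shRNA cultures, against 2.13 FPKM in vector cultures. Cxcl14 per unit of Gad1, which encodes an enzyme of GABA synthesis, was 0.158 in untreated shRNA cultures, against 0.235 in untreated vector cultures, and 0.124 in shRNA cultures with Bic/4AP, against 0.222 in vector cultures with Bic/4AP. Cxcl14 per unit of Cck was 0.169 in untreated shRNA cultures, against 0.220 in untreated vector cultures, and 0.175 in shRNA cultures with Bic/4AP, against 0.224 in vector cultures with Bic/4AP. Astrocyte markers summed to 2835 FPKM in untreated shRNA cultures, against 2943 FPKM in untreated vector cultures (96.3%), and to 3213 FPKM in shRNA cultures with Bic/4AP, against 3181 FPKM in vector cultures with Bic/4AP (101%). The 12 general neuron markers summed to 2264 FPKM in untreated shRNA cultures, against 3085 FPKM in untreated vector cultures (73.4%), and to 2450 FPKM in shRNA cultures with Bic/4AP, against 2854 FPKM in vector cultures with Bic/4AP (85.8%). Of these 12, all lay below 0 untreated and 7 with Bic/4AP, and 1, the growth-associated gene Stmn2, was 2-fold lower in each comparison. The part of any cell type in the level of Cxcl14 was not tested.

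**Figure D5:**
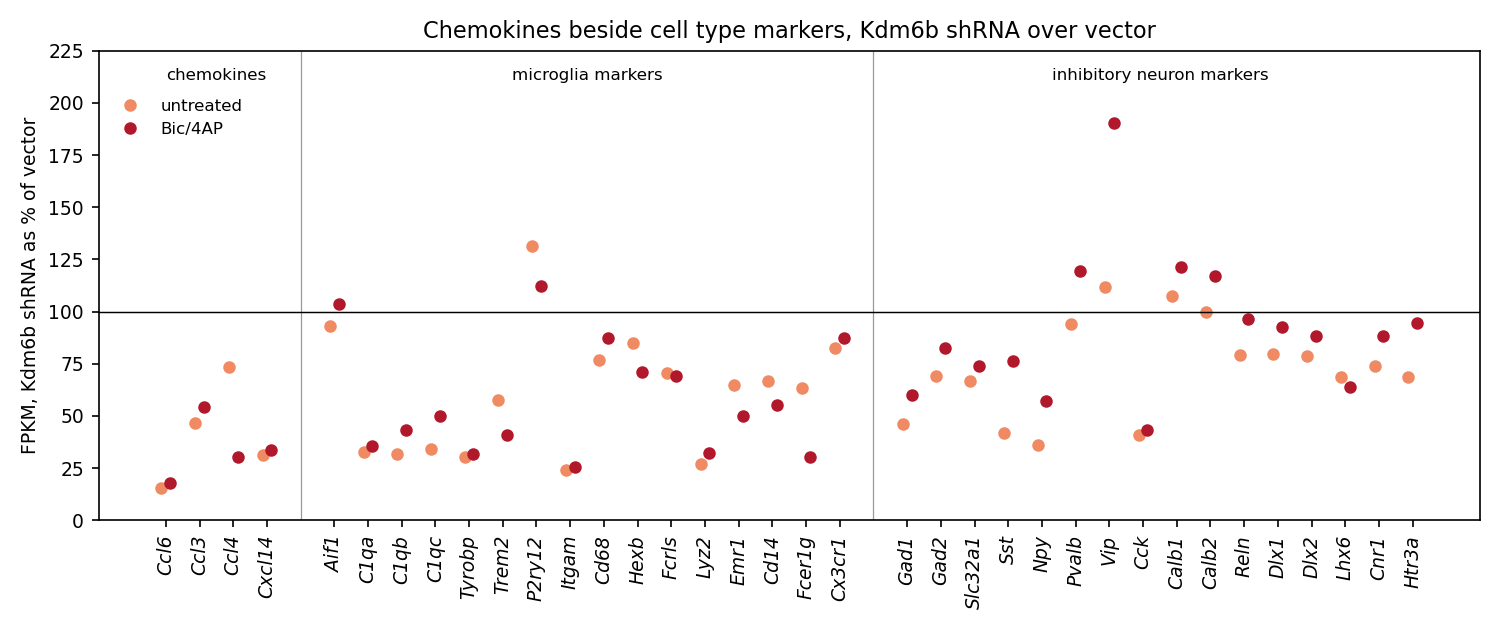
FPKM in Kdm6b shRNA cultures as a percentage of vector cultures, untreated and with Bic/4AP, for 4 chemokine genes and for the microglia and inhibitory neuron markers that reached 1 FPKM, with a line at 100%. Points are drawn without intervals. The point values of Ccl6 lie lower than those of every microglia marker plotted, and those of Cxcl14 lower than every inhibitory neuron marker plotted. The counting interval of Ccl6 overlaps those of some microglia markers, such as Itgam and Tyrobp, in both comparisons. Untreated, the interval of Cxcl14 overlaps that of Npy.

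The genes whose levels over the 4 libraries ran nearest to each chemokine gene were found by Euclidean distance between centred log2(FPKM + 1) values, among 13457 genes that reached 1 FPKM. With 4 libraries such a distance is a description. Ccl6 and Cxcl14 were nearest to each other, at a distance of 0.0752, and the second nearest to Cxcl14 was the microglial gene Tyrobp, at 0.108. Adding 1 shrinks the folds of the scarcer Ccl6. Its plain ratios of shRNA to vector were 0.156 untreated and 0.177 with Bic/4AP, against 0.312 and 0.336 for Cxcl14. Cxcl1 ran nearest to Nr4a2, an immediate-early nuclear receptor, at 0.170, and to Klf4 at 0.241. Ccl2 ran nearest to Cxcl1, at 0.327, and Cxcl2 to Cxcl1 and Ccl2, at 0.371 and 0.455. Ccl7 ran nearest to Tnfaip6, an inflammation-induced hyaluronan-binding protein, at 0.164. Ccl5 ran nearest to Esm1 and Sap30, at 0.323 and 0.347. Cxcl10 had the most distant nearest gene of the 10, Arl5b at 0.735. Ccl3 ran nearest to Arpc1b, at 0.0560, and Ccl4 to Crabp1, at 0.0817, on differences close to their counting error.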

How the data were processed

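PolyA-enriched RNA was sequenced in 4 libraries, 1 per group. Cufflinks 2.0.2, TopHat2 2.0.8b, CASAVA 1.8 and the mouse build mm9 are listed in the submitters' processing notes, and the annotation is not given in the sources used here. The authors deposited FPKM per gene with a lower and an upper bound. The bounds equal the FPKM plus and minus 2 SD of a fragment count, and the fragments they imply came out whole, within 0.05, for 28 of 29 member values of up to 600 fragments. Across 4326 genes with 1 to 200 fragments in each library, 65.3 to 65.9% of values were whole, so no count test was run. Rows (22878) were summed per symbol (22492), and symbols of small RNAs or with a failed row were left out, which left 21719 genes.

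Differences were taken in log2(FPKM + 1), so that folds of low genes are understated. Ratios are plain FPKM ratios, with exact 95% Clopper-Pearson intervals on the implied fragments, and ratios of ratios have approximate intervals. Only counting error is covered. The code was tested on simulated data. The members and lists were chosen with earlier results of these data known. Genes named were the 10 members, the genes of the lists that reached 1 FPKM, the 2 nearest profiles per member, Kdm6b and Fos. Scarce receptors and cluster neighbours under 1 FPKM, and the single markers, were named after their values were seen. Alternatives changed the pseudocount (0.1, 5), the minimum level, the scaling, the use of bounds, and the handling of repeated and failed rows. Python 3.11.15, pandas 2.3.3, numpy 2.4.6 and scipy 1.17.1 were used.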

Additional observations from a re-analysis of the deposited data

Results flagged for a closer look

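Ccl5 lay on opposite sides of 0 in the comparison of shRNA with vector cultures: the difference in log2(FPKM + 1) was -0.50 untreated and 0.65 with Bic/4AP, which are 1.15 apart, and the interval of its untreated ratio spans 1. Ccl4 responded to Bic/4AP with -0.02 in shRNA cultures and 0.58 in vector cultures, which differ by -0.60. Cxcl14 responded with 0.09 in shRNA cultures and -0.01 in vector cultures, which differ by 0.10. With 1 library per group none of these differences was tested.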

How the results depend on the processing

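Of 398 member values recomputed under 9 alternatives, 360 stayed within their counting error and 38 moved beyond it, all of them with a pseudocount of 0.1 or 5. No 2-fold difference turned round, while 7 values of 5 smaller differences, each within 0.06 of 0, took the other sign: the Cxcl14 response in vector cultures and the difference of responses of Ccl2, Ccl3, Ccl6 and Cxcl1. The other alternative, bounds that do not overlap, recomputes no value and was applied to 17 calls, all of which passed. All 19 differences called 2-fold were still called with a pseudocount of 0.1, with no minimum level, under 3 other scalings, with the highest row per symbol and with failed rows kept. With a pseudocount of 5, 13 of the 19 were called, and with a minimum of 5 FPKM, 16. The minimum of 5 FPKM left out Ccl5 in the vector response and Ccl6 in both comparisons of shRNA with vector cultures.

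For shRNA against vector cultures untreated, the pseudocount of 0.1 gave 5 members 2-fold apart, 4 of them lower, and that of 5 gave 1, 0 higher and 1 lower, while the minimum of 5 FPKM gave 1 lower. With Bic/4AP, the pseudocount of 5 and the minimum of 5 FPKM each gave 1 member apart, which was lower. For the difference of responses the pseudocount of 0.1 gave 2 lower, and that of 5 gave 0 in all, 0 higher and 0 lower. Cxcl10 was the value nearest the limit, at 0.99 untreated and -0.60 in the difference of responses with a pseudocount of 5, where Ccl5 stood at 0.57 and Ccl6 at -0.68. The small Cxcl14 response in vector cultures was 0.06 under median-ratio, 0.03 under upper-quartile and -0.04 under common-sum scaling.

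No paired analysis was possible because each group held 1 library. Depth limits Cxcl2, Ccl5, Ccl3 and Ccl4, whose lowest levels rest on 4 to 22 fragments.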

Other observations

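In point values, the ratio of Ccl2 to its neighbour Ccl7 went with the virus and not with the treatment. It was 7.03 in shRNA cultures with Bic/4AP and 6.20 in untreated shRNA cultures, against 3.28 in vector cultures with Bic/4AP and 3.43 in untreated vector cultures. For shRNA over vector, the untreated intervals of Ccl2 (1.33 to 2.12) and of the scarce Ccl7 (0.558 to 1.55) overlap. With Bic/4AP their intervals, 1.41 to 1.60 and 0.612 to 0.801, do not. The ratio of Cxcl1 to its neighbour Cxcl2 went with the treatment: it was 2.85 in shRNA and 4.00 in vector cultures with Bic/4AP, against 18.7 in untreated shRNA and 22.1 in untreated vector cultures, where Cxcl2 had 7 and 4 fragments. Both ratios were chosen for mention after their values were seen, and neither was tested.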
